A study of Mus musculus with 40 samples.

Results

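The 153 genes described here are the mouse genes whose symbol is Zfp followed by a number and whose RNA reached at least 5 RPKM (reads per kilobase of transcript, scaled to the mapped reads of the library, so a level per length) in at least 2 of 8 RNA-seq libraries. They were chosen by these RPKM levels from 340 such symbols among 23228 gene symbols, after Zfp42, Zfp296, Zfp462 and Zfp644 had been set aside by name. The level that chose them is therefore no finding. Just inside the threshold, by the second highest of the 8 values, were Zfp667 at 5.01 RPKM, Zfp61 at 5.03 RPKM and Zfp870 at 5.09 RPKM, and just outside were Zfp691 at 4.98 RPKM and Zfp81 and Zfp239, both at 4.92 RPKM.

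The libraries came from mouse embryonic stem cells on a mixed C57BL/6 background, targeted in the R1 line. There were 4 groups of 2 libraries: wild type untreated, homozygous GLP 3A mutant untreated, wild type with retinoic acid (RA), and homozygous GLP 3A mutant with RA. RA groups received 1 uM all-trans retinoic acid while LIF, the cytokine that holds stem cells in self-renewal, was taken away, so RA and loss of LIF cannot be told apart. Cells of all groups had been moved from feeder cells in serum and LIF to 2i medium without feeders. GLP is the product of Ehmt1, a methyltransferase of histone H3 lysine 9. How long RA lasted, how many clones stand behind each genotype and whether the 2 libraries of a group came from separate cultures is not stated in the labels. The p-values therefore measure only the spread between these libraries, which may be technical. A difference between genotypes cannot be told apart from one between cell lines. The series has 40 samples, and the 32 samples of chromatin and input DNA were not analysed here.

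Zinc finger proteins of the C2H2 kind read DNA with a row of small finger domains, each holding a zinc ion and contacting a few bases. Many carry a KRAB domain at their start. This domain calls in Trim28, which brings Setdb1 and other enzymes that lay down methylation on histone H3 lysine 9 and silence the bound sequence, often a retroelement or an imprinted gene. KRAB zinc finger genes tend to lie side by side in large clusters. The symbol Zfp also covers proteins that bind RNA, ribosomes or actin, so the set is a family by name and not by 1 biochemical role.

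RA moved the cells away from the stem cell state by their markers. The summed level of 7 embryonic stem cell markers was 2470 to 2826 RPKM in the untreated libraries and 57.7 to 88.7 RPKM with RA. Cyp26a1, the enzyme that breaks down RA, was at or under 0.612 RPKM in all 4 untreated libraries and at 125 to 218 RPKM with RA. Of 8 fibroblast feeder markers, summed levels were 3.90 to 5.92 RPKM without RA, mostly Thy1, and 73.9 to 118 RPKM with RA, led by collagen genes. Of that list Dcn went from 0 to 1.06 RPKM without RA to 5.10 to 17.7 RPKM with RA, Postn was at 0.252 to 0.813 RPKM with RA, Lum was at 0 in 5 of the 8 libraries and at most at 0.277 RPKM, and Thy1 fell. Markers of primitive endoderm summed to 1.63 to 1.81 RPKM without RA and 30.8 to 122 RPKM with RA, and those of neural progenitors to 26.6 to 48.7 RPKM and 60.6 to 80.3 RPKM. These marker levels move with every RA result below, and their part in it was not tested, and in bulk RNA fewer cells of a type and less RNA per cell cannot be told apart. Ehmt1 itself was at 18.4 and 17.6 RPKM in wild type without RA, 14.1 and 14.3 RPKM in untreated GLP 3A, 24.4 and 23.5 RPKM in wild type with RA and 13.0 and 13.9 RPKM in GLP 3A with RA, so the mutant was lower in both states (limma adjusted p = 0.0334 and 0.00410). Read depth, estimated from the steps between low values, was 0.955 to 1.24 times that of the first untreated wild-type library in the other first replicates and 0.438 to 0.573 times in the second replicates, so low values rest on fewer reads in the second replicates.

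Most of the 153 genes were expressed at low to middling levels. Over all 8 libraries 22 had a mean of 20 RPKM or more, 41 a mean of 10 to 20 RPKM, 62 of 5 to 10 RPKM and 28 below 5 RPKM. Zfp207, the spindle-assembly protein BuGZ, had the highest mean at 155.6 RPKM. Next came Zfp57, the KRAB protein that keeps imprints methylated, at 125.6 RPKM. Zfp106, an RNA-binding protein, followed at 51.1 RPKM, Zfp706 at 49.6 RPKM and Zfp622, a factor in maturation of the large ribosomal subunit, at 40.8 RPKM. The remainder of the leading group was Zfp219, Zfp428, Zfp553, Zfp330 and Zfp598, with means of 32.8 to 40.5 RPKM. No member was at 0 in any library, and 10 fell below 1 RPKM in at least 1 library. The genes reached 5 RPKM in different states: 89 in all 8 libraries, 19 in untreated libraries only, 25 in RA libraries only and 20 in some libraries of both. Replicates lay close together, with a median gap between the 2 libraries of a group of 0.09 on the log2(RPKM + 1) scale in both untreated groups, 0.13 in wild type with RA and 0.15 in GLP 3A with RA. In this last group Zfp503, Zfp608 and Zfp936 differed between replicates by 1 log2 unit or more.

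RA moved a large share of the zinc finger genes, in both directions. In wild type 51 of the 153 genes rose and 66 fell at an adjusted p under 0.05 (limma on log2(RPKM + 1), Benjamini-Hochberg over 13198 genes), and 36 did not pass. Among all 13198 genes tested 68.5% were called, 33.7% higher and 34.8% lower, against 76.5% of the zinc finger genes. By 2-fold or more, 23 of the 153 rose and 17 fell, beside 15.5% and 10.2% of all genes tested. The median difference of the 153 genes was -0.06 on the log2(RPKM + 1) scale, against -0.03 over all genes tested and -0.11 over the 9866 genes that met the same rule of 5 RPKM in 2 libraries, of which 71.1% were called. It was -0.16 without the second untreated wild-type library, -0.13 without either wild-type library with RA and -0.19 with quantile normalization. The 25 and 19 genes that reached 5 RPKM in only 1 of the states had to differ between them, so these counts are a description and support nothing about the family. Of the 89 genes at or above 5 RPKM in all 8 libraries, 18 rose (20.2%) and 43 fell (48.3%), with a median of -0.23. Of all 7055 genes at or above 5 RPKM in all 8 libraries, 24.8% rose and 42.7% fell, with a median of -0.17, so falls outnumbered rises in both.

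The deepest falls with RA were in Zfp534, Zfp459, Zfp57 and Zfp936. Zfp534 (chr4:147047611-147076662, mm9) was at 13.8 and 17.0 RPKM in wild type without RA and at 0.766 and 0.479 RPKM with RA. In GLP 3A its levels were 19.7 and 22.4 RPKM without RA and 1.82 and 0.560 RPKM with it. In both genotypes the untreated libraries were far above the RA libraries, with a fall of 24.7-fold in the wild-type mean and a log2 difference of -3.33 ± 0.28 (moderated SE, limma adjusted p = 0.000114). Zfp459 (chr13:67506649-67522354) went from 13.0 and 12.3 RPKM to 0.640 and 0.499 RPKM in wild type. Its GLP 3A libraries were at 12.6 and 14.4 RPKM without RA and at 0.830 and 0.427 RPKM with RA. The untreated libraries of both genotypes overlapped, and the wild-type difference was -3.12 ± 0.14 (limma adjusted p = 1.31e-05).

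Zfp57 (chr17:37138107-37147674), a KRAB protein that binds a methylated motif and keeps imprinting control regions methylated, was the most abundant of the genes that fell strongly. Its level was 263 and 257 RPKM in wild type without RA, 176 and 168 RPKM in untreated GLP 3A, 33.0 and 40.1 RPKM in wild type with RA, and 31.1 and 37.1 RPKM in GLP 3A with RA. The untreated genotypes did not overlap while the RA groups did. The fall was 7.12-fold in wild type, a log2 difference of -2.80 ± 0.12 (limma adjusted p = 1.08e-05). Zfp936 (chr7:50432957-50447479) stood at 17.9 and 18.9 RPKM without RA and at 2.96 and 2.27 RPKM with RA in wild type, a difference of -2.43 ± 0.31 (limma adjusted p = 0.000611).

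Among the next 6 falls in wild type were Zfp819, which is known to repress retroelements, and Zfp106. Zfp59 went from 11.6 and 10.6 RPKM to 2.44 and 1.83 RPKM. Zfp819 went from 7.86 and 7.73 RPKM to 1.01 and 1.77 RPKM. The others were Zfp710, Zfp808, Zfp553 and Zfp106, with log2 differences of -1.82, -1.54, -1.503 and -1.31. Zfp710 and Zfp808 share their locus with another symbol (12 members do in all), so how the reads were divided is uncertain. Zfp553 and Zfp106 stayed well expressed with RA, at 20.2 and 20.04 RPKM and at 32.0 and 26.8 RPKM. These 10 were picked as the largest called falls in the same libraries, and some are members only through their untreated levels. Their p-values are therefore no separate support. In the fits that left out 1 library the difference was -3.48 to -3.19 for Zfp534 and -1.43 to -1.18 for Zfp106.

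The largest rises started from almost no RNA. Zfp503 (chr14:22803183-22808823), a corepressor of the Nlz family that acts in the developing nervous system and limbs, was at 0.129 and 0.0962 RPKM in wild type without RA and at 36.0 and 46.9 RPKM with RA. In GLP 3A it was at 0.1004 and 0.145 RPKM without RA and at 10.7 and 23.1 RPKM with RA. All 4 RA libraries were far above all untreated ones, and those of GLP 3A were below those of wild type. The wild-type difference was 5.24 ± 0.32 (limma adjusted p = 3.53e-05). Its relative Zfp703 (chr8:28087807-28091934) was at 0.420 and 0.295 RPKM in wild type without RA, at 0.687 and 0.522 RPKM in untreated GLP 3A, at 46.3 and 45.8 RPKM in wild type with RA and at 64.7 and 62.2 RPKM in GLP 3A with RA. Its difference in wild type was 5.12 ± 0.09 (limma adjusted p = 1.95e-06), and with RA the GLP 3A libraries were the higher ones. Untreated levels this low rest on few reads, and the pseudocount of 1 RPKM shrinks such differences.

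Zfp608, a relative of the Nipbl partner Zfp609, was at 0.264 and 0.262 RPKM in wild type without RA and at 11.9 and 14.8 RPKM with RA, a difference of 3.5005. Zfp362 went from 1.58 and 1.49 RPKM to 24.6 and 22.0 RPKM, a difference of 3.26. Zfp768 went from 1.70 and 1.43 RPKM to 10.3 and 12.9 RPKM, a difference of 2.28. The next were Zfp618, Zfp358, Zfp319, Zfp282 and Zfp423, with differences of 2.06, 1.71, 1.67, 1.47 and 1.36. Zfp423 (chr8:90185708-90483494), a partner of Ebf and Smad factors and of the RA receptor, was already at 6.02 and 5.37 RPKM in wild type without RA and reached 17.4 and 15.1 RPKM with RA. These 10 rises were likewise picked as the largest called ones, and most of the genes are members only through their levels with RA. Their p-values are no separate support either. In the fits that left out 1 library the difference was 5.05 to 5.43 for Zfp503 and 1.27 to 1.46 for Zfp423. The largest differences in wild type that did not pass were -0.44 for Zfp938, 0.29 for Zfp61 and 0.27 for Zfp414.

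**Figure D1:**
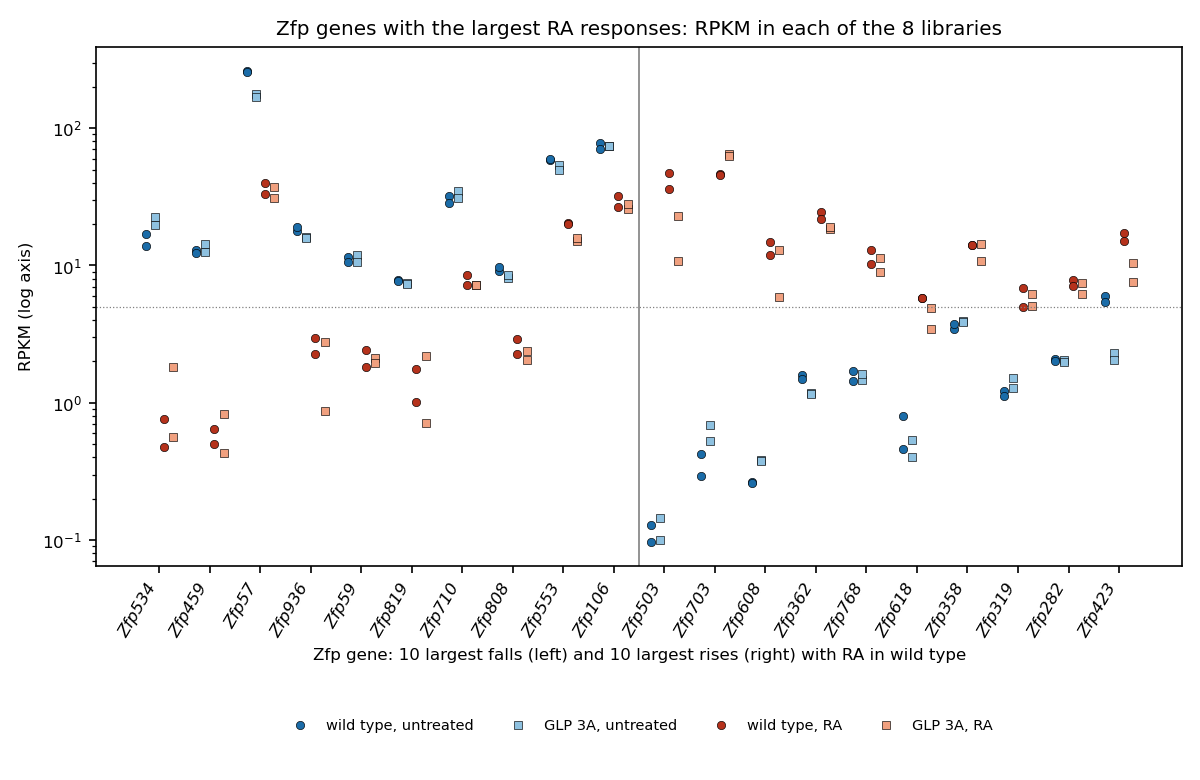
RPKM on a log axis in each of the 8 libraries (2 points a group) for the 10 zinc finger genes with the largest falls and the 10 with the largest rises with RA in wild type; circles are wild type, squares GLP 3A (paler), blue untreated, red with RA, and the dotted line marks 5 RPKM. Zfp57 is the highest of the falling genes, with 263 and 257 RPKM in wild type without RA, and Zfp503, Zfp703 and Zfp608 are below 1 RPKM in every untreated library.

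Promoters of some genes that moved strongly are printed as examples of base composition, since CpG-rich and CpG-poor starts are known to be regulated differently. Each is the 250 bases before the start in RefSeq's table for GRCm38.p6 (a later build than the mm9 of the levels), 5′ to 3′ on the gene's strand, with CpG dinucleotides in capitals. The genes were picked by hand from those with a single listed start, so they do not stand for all that fell or rose. Those that fell were Zfp534 (chr4:147702632-147702881, minus strand), Zfp459 (chr13:67421419-67421668, minus strand) and Zfp936 (chr7:43177340-43177589, plus strand).
Zfp534: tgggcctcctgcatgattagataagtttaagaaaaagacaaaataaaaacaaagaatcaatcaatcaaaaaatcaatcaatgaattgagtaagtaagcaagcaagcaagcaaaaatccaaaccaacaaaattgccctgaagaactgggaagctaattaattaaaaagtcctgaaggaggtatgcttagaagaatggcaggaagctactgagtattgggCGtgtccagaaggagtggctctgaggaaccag
Zfp459: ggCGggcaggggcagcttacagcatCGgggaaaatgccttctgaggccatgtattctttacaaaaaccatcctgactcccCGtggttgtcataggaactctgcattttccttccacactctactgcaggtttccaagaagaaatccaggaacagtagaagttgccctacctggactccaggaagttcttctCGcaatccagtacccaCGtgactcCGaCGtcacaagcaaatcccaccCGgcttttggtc
Zfp936: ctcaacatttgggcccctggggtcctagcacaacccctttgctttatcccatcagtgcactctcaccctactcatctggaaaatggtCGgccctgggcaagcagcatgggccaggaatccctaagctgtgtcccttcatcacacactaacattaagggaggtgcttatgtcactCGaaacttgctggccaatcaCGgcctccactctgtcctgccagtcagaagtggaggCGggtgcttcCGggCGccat
They held 1, 8 and 6 CpG dinucleotides. Those that rose were Zfp503 (chr14:21989602-21989851, minus strand), Zfp768 (chr7:127345315-127345564, minus strand) and Zfp319 (chr8:95331812-95332061, minus strand).
Zfp503: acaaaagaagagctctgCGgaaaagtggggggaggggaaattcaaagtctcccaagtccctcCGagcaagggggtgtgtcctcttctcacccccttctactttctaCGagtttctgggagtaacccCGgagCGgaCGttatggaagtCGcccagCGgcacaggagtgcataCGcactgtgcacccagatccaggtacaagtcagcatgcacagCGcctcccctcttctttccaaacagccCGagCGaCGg
Zfp768: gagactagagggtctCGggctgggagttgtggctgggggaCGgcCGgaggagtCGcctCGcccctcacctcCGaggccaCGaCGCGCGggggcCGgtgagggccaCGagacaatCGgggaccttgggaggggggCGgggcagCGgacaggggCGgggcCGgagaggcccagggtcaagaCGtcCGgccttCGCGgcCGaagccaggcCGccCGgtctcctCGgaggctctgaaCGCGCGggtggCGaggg
Zfp319: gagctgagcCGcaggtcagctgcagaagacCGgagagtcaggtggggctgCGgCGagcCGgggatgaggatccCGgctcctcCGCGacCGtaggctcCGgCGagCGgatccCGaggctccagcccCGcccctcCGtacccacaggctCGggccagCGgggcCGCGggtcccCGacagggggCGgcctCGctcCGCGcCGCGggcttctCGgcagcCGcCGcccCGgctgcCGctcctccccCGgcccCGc
They held 13, 29 and 33. Zfp618 and Zfp358, not printed, also have a single listed start and rose, with 48 and 24. Other genes with a single listed start and a change of 2-fold or more had counts the other way round. Zfp667 and Zfp281 fell with 22 and 19, and Zfp192 and Zfp146 rose with 8 and 9.

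Promoter windows were matched for 125 of the 153 genes, 118 by symbol and 7 by an older symbol on the same chromosome, and where a gene had several starts their mean was used. The median number of CpG dinucleotides was 14 over the 125 genes and 6 over the 27025 genes of the table, most of which were not tested here. The 14 matched of the 17 genes lowered by RA by 2-fold or more had a median of 7. Of these 14 genes 8 were under 10, against 30 of the 125. The shares were 57.1% and 24.0%, beside 61.5% of all 27025 genes, so the lowered genes were CpG-poor only beside the other members. These differences were not tested. Of the 17 lowered genes 9 reached 5 RPKM in untreated libraries only. For the 23 genes raised by 2-fold or more 18 were matched, 78.3%, under the 80% needed for this check, which is therefore void. The lowered group, at 82.4%, was only just above that limit. Of 7 motifs searched on both strands, the RA response element (DR5) was in 0 of the 125 windows and in 3 of the 27025 of the table. The half-site AGGTCA, which that element holds 2 times, was in 10.4% of the members' windows and 15.8% of all. The octamer ATGCAAAT was in 2.4% (Zfp207, Zfp263 and Zfp428) and 1.8%, the GC box GGGCGG in 57.6% and 35.4%, the NRF1 motif in 2.4% (Zfp213, Zfp334 and Zfp639) and 0.9%, the YY1 motif in 0.8% (Zfp207 alone) and 0.2%, and TGCCGC (the motif of Zfp57) in 16.8% and 9.8%. These are matches of letters only.

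Of 11 factors listed for imprints and retroelements, 9 were tested and 7 were members. Of the 7 members 5 fell with RA in wild type while 0 rose. Of all genes tested 34.8% fell and 33.7% rose, and of those with 5 RPKM in 2 libraries 39.4% fell and 31.6% rose. Zfp819 is a member only through its untreated levels. Beside Zfp57 and Zfp819, the members that fell were Zfp809, which silences retroviruses through their primer binding site, Zfp932 and Zfp961. Zfp809 was at 11.99 and 13.97 RPKM without RA and at 7.998 and 8.08 RPKM with it in wild type, a difference of -0.63 (limma adjusted p = 0.0161). In GLP 3A it was at 15.3 and 16.2 RPKM without RA and at 16.1 and 10.97 RPKM with it, so these groups overlapped. Zfp932 went from 9.83 and 11.5 RPKM to 5.58 and 4.86 RPKM and Zfp961 from 15.3 and 13.8 RPKM to 7.83 and 8.66 RPKM. Zfp445, the other KRAB protein known to keep imprints, had a difference of -0.22 in wild type (limma adjusted p = 0.0539) and -0.27 in GLP 3A (limma adjusted p = 0.0270). Zfp568, which represses a placental promoter of Igf2, was at 29.6, 24.8, 34.9 and 29.5 RPKM in the 4 wild-type libraries and did not pass (difference 0.24, limma adjusted p = 0.238). The list's median was -0.75, beside -0.06 over all 153 genes.

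Of 14 stem cell and lineage regulators, 11 were members, and 4 rose and 4 fell with RA in wild type, a share called (72.7%) near the 68.5% of all genes tested. Beside Zfp503, Zfp703 and Zfp423, Zfp238 rose, the repressor of neuronal differentiation genes now called Zbtb18, from 5.31 and 5.11 RPKM to 11.1 and 13.1 RPKM. Zfp281, a factor that drives the exit from naive pluripotency, fell from 42.9 and 44.8 RPKM to 17.7 and 18.6 RPKM, a difference of -1.23 ± 0.08 (limma adjusted p = 4.33e-05). Zfp143, an activator that binds promoters and loop anchors, fell by 0.47 on the log2 scale, Zfp217 by 0.56 and Zfp292 by 0.66. Zfp148, Zfp219 and Zfp335 had differences of 0.10, 0.19 and -0.20 that did not pass.

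Of 13 members that act in RNA, ribosome and ubiquitin pathways, 8 fell and 2 rose in wild type, beside 39.4% lower and 31.6% higher of the genes tested with 5 RPKM in 2 libraries. Their median was -0.39. Zfp598, the ubiquitin ligase that senses collided ribosomes, fell from 43.9 and 47.5 RPKM to 24.97 and 23.3 RPKM. Zfp259, or Zpr1, fell from 28.5 and 28.7 RPKM to 13.1 and 17.1 RPKM. Zfp451, a SUMO ligase, fell from 28.7 and 25.3 RPKM to 16.2 and 15.1 RPKM. Zfp207, Zfp622, Zfp706, Zfp330 and Zfp106 made up the rest of the falls. Zfp36, or tristetraprolin, which speeds the decay of mRNAs with AU-rich ends, rose from 9.76 and 10.4 RPKM to 23.4 and 22.8 RPKM, a difference of 1.12 ± 0.09 (limma adjusted p = 9.55e-05). Zfp326, a subunit of a complex that links transcription and splicing, rose from 10.6 and 10.9 RPKM to 18.8 and 23.2 RPKM. Of the partners of the Z3 and NuRD complexes, Zfp592 and Zfp687 rose by 0.83 and 0.80, Zfp532 fell by 1.24 on the log2 scale, and Zfp512 had a difference of 0.22 that did not pass (limma adjusted p = 0.0511).

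Many genes fell with RA on a list of the repressor machinery of KRAB zinc finger proteins and of histone H3 lysine 9 methylation. A link between these falls and those of the zinc finger genes was not tested. Of 23 listed genes tested, none of them a member, 14 fell (60.9%) and 3 rose in wild type. In GLP 3A 19 fell (82.6%) and 2 rose. Of all genes tested 34.8% fell and 33.7% rose in wild type, and 38.1% fell and 32.3% rose in GLP 3A. The list's medians were -0.52 and -0.86, beside -0.03 and -0.07 over all genes tested. Most listed genes were at 5 RPKM or more in all 8 libraries. Of all 7055 genes at that level 42.7% and 49.5% fell, with medians of -0.17 and -0.27. Trim28 was at 539 and 536 RPKM in wild type without RA, 577 and 573 RPKM in untreated GLP 3A, 253 and 204 RPKM in wild type with RA and 199 and 178 RPKM in GLP 3A with RA. Setdb1 fell from 38.5 and 34.1 RPKM to 22.2 and 18.7 RPKM in wild type. Suv39h1, another methyltransferase of histone H3 lysine 9, rose from 13.9 and 12.6 RPKM to 28.8 and 25.8 RPKM. The other rises in wild type were Pphln1 and Ehmt1, with differences of 0.87 and 0.39.

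With RA in GLP 3A 42 of the 153 genes rose and 68 fell, 71.9% in all against 70.4% of all genes tested (32.3% higher and 38.1% lower), and 43 did not pass. By 2-fold or more 18 rose and 21 fell, and the median was -0.16 beside -0.07 over all genes tested. These values were near those of the 9866 genes that met the same rule of 5 RPKM in 2 libraries, of which 72.8% were called, 28.6% higher and 44.2% lower, with a median of -0.19. Across genotypes 60 genes fell in both, 41 rose in both, 15 were called in wild type alone, 8 in GLP 3A alone and 28 in neither. The responses of the 153 genes correlated across genes with r = 0.974, against 0.879 over all genes tested, and genes are not independent replicates. In GLP 3A the deepest falls were again Zfp534, Zfp459, Zfp936 and Zfp57, at -3.39, -3.17, -2.68 and -2.31, and the largest rises Zfp703, Zfp503, Zfp362 and Zfp608, at 5.33, 3.90, 3.19 and 2.83. Zfp428, Zfp672 and Zfp334 had larger changes in GLP 3A, with -1.73, 2.17 and 1.52, and were called in the same direction in wild type, with -0.84, 1.33 and 1.08.

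**Figure D2:**
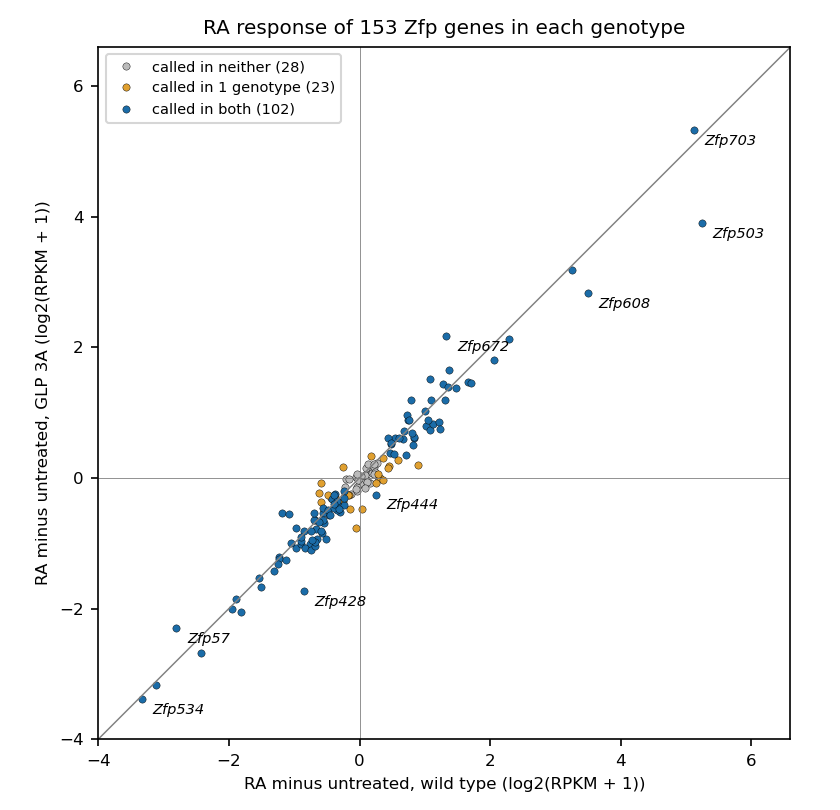
Difference between RA and untreated on the log2(RPKM + 1) scale in wild type (horizontal) and GLP 3A (vertical) for the 153 zinc finger genes; each point is 1 gene, the diagonal marks equal responses, and colours give the genotypes in which a gene was called. Points follow the diagonal (r = 0.974), with Zfp503 at 5.24 and 3.90 and Zfp428 at -0.84 and -1.73 farther from it.

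No member's response to RA passed the test of a difference between genotypes (limma interaction term). At an adjusted p under 0.05, 0 of 153 were higher and 0 lower, against 1.80% of all genes tested. By the same test 20 of the 153 members had an unadjusted p under 0.05, beside 2764 of the 13198 genes tested, a larger share. Zfp444 came nearest to the adjusted threshold. It was at 8.79 and 8.55 RPKM in wild type without RA and rose to 10.7 and 10.4 RPKM, and it was at 9.26 and 9.04 RPKM in untreated GLP 3A and fell to 7.08 and 7.89 RPKM, the 1 member called in opposite directions. The difference of its responses was -0.51 ± 0.11 (limma adjusted p = 0.0731). The largest differences of response were -1.34 for Zfp503, -0.89 for Zfp428 and 0.84 for Zfp672, with adjusted p of 0.171, 0.116 and 0.346 by the same limma test. Zfp428 was at 38.8 and 42.6 RPKM in wild type without RA and 76.0 and 58.8 RPKM in untreated GLP 3A, and at 19.0, 25.9, 19.3 and 19.4 RPKM in the 4 RA libraries, which overlapped. Without the second GLP 3A library with RA, 4 members passed: Zfp444, Zfp503 and Zfp608 lower and Zfp809 higher.

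Few of the zinc finger genes differed between genotypes without RA. In untreated cells 5 of the 153 genes were higher in GLP 3A and 8 lower (limma adjusted p under 0.05), 8.50% against 11.7% of all genes tested, of which 7.52% were higher and 4.15% lower. The members' median difference was -0.01 on the log2(RPKM + 1) scale and that of all genes tested 0.04. Some markers differed here too. Zfp42 was at 314 and 290 RPKM in wild type and at 66.4 and 63.2 RPKM in GLP 3A (limma adjusted p = 0.00893), and the other listed stem cell markers did not pass. Neural progenitor markers summed to 27.6 and 26.6 RPKM in wild type and 48.7 and 45.4 RPKM in GLP 3A. The part of these markers in the results without RA was not tested. Zfp213 (chr17:23693733-23701193) had the largest rise: 2.50 and 2.53 RPKM in wild type and 6.23 and 5.58 RPKM in GLP 3A, a 2.35-fold higher mean and a difference of 0.98 ± 0.09 (limma adjusted p = 0.00346). The groups were well apart, and it was the 1 member whose call without RA held in all 8 fits that left out a library. Its difference in those fits was 0.91 to 1.04. The calls of all other members were lost when any of the 4 untreated libraries was left out, and most calls over all genes tested were lost too. A fit of those 4 libraries alone called 11 members higher and 14 lower, beside 2187 higher and 1263 lower of all 13198 genes tested.

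The promoter of Zfp213 (GRCm38.p6, chr17:23564227-23564476, minus strand) is shown since this gene carried the firmest difference between genotypes, again with CpG in capitals.
Zfp213: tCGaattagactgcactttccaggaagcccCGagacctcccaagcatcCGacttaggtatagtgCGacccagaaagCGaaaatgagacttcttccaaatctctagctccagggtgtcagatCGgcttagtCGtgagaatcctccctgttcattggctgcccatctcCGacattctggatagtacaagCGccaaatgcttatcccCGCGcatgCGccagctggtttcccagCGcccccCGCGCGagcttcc
It held 16 CpG dinucleotides and the letters of the NRF1 motif.

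The other 4 genes higher in untreated GLP 3A were Zfp652, a partner of Cbfa2t repressors, Zfp580, Zfp36 and Zfp1, with differences of 0.50, 0.47, 0.44 and 0.32. Zfp652 was at 10.4 and 9.64 RPKM in wild type and at 14.7 and 14.6 RPKM in GLP 3A. The largest of the 8 lower genes was Zfp423, at 6.02 and 5.37 RPKM in wild type and 2.28 and 2.06 RPKM in GLP 3A, a difference of -1.08 ± 0.15 (limma adjusted p = 0.0106). Zfp334 followed, at 3.13 and 2.50 RPKM against 1.15 and 0.891 RPKM, a 2.75-fold lower mean and a difference of -0.91. Zfp57 was lower by 1.51-fold, a difference of -0.59 (limma adjusted p = 0.0290), from the levels given above. Zfp365, a Disc1-binding protein, Zfp706, Zfp281, Zfp185, a LIM-domain protein of the actin skeleton, and Zfp523, a relative of Zfp143, had differences of -0.30 to -0.49. The largest differences that did not pass were 0.70 for Zfp428, -0.56 for Zfp516 and -0.50 for Zfp142.

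With RA 2 genes were higher in GLP 3A and 11 lower, again 8.50%, against 10.6% of all genes tested (5.30% higher and 5.31% lower). Some stem cell markers differed there too: Nanog was at 1.51 and 0.814 RPKM in wild type with RA and at 13.1 and 6.30 RPKM in GLP 3A with RA (limma adjusted p = 0.0146), and Tdgf1 was at 0.552 and 0.674 RPKM against 7.23 and 2.81 RPKM (limma adjusted p = 0.0261). Sox2 was lower in GLP 3A with RA, at 21.4 and 35.4 RPKM against 38.3 and 47.2 RPKM in wild type. It did not pass (limma adjusted p = 0.140). Pou5f1, Esrrb, Fgf4 and Zfp42 were higher in GLP 3A by the mean log2 difference and did not pass either. The part of these markers in the results with RA was not tested. Zfp213 was at 3.31 and 3.45 RPKM in wild type and 6.28 and 5.51 RPKM in GLP 3A, a difference of 0.65 ± 0.09 (limma adjusted p = 0.0168). Zfp703, with the levels given above, had a difference of 0.45 (limma adjusted p = 0.0304). Zfp423 was the lowest, at 17.4 and 15.1 RPKM against 7.62 and 10.5 RPKM, a difference of -0.79 ± 0.15 (limma adjusted p = 0.0304). Zfp61, Zfp451, Zfp609, Zfp395, Zfp579, Zfp444, Zfp281, Zfp553, Zfp277 and Zfp706 had differences of -0.57 to -0.31. Zfp609, which works with the cohesin loader Nipbl, was at 20.3 and 16.9 RPKM in wild type and 11.7 and 12.8 RPKM in GLP 3A. Zfp503, Zfp672 and Zfp809 had the largest differences that did not pass, -1.32, 0.89 and 0.66. Zfp503 lay at the threshold (limma adjusted p = 0.0510) and passed after quantile normalization and after scaling by the median of ratios. These calls depended on the set of libraries fitted. With only the 4 RA libraries fitted 0 of the 13 passed, and of all 13198 genes tested 4 were higher and 11 lower. Most of the 13 calls were also lost in most fits that left out 1 library, including untreated libraries outside this comparison. The members' median difference in those fits was -0.1126 to -0.0868. Without the second GLP 3A library with RA, 4 genes were higher and 19 lower.

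Zfp213, Zfp423, Zfp281 and Zfp706 were called in both states and in the same direction in each, of 22 genes called in either. The genotype differences without and with RA correlated across the 153 genes with r = 0.473, against 0.309 over all genes tested. Genes of chromosome 1 were lower and those of chromosome 11 higher in GLP 3A over the whole table, with medians of -0.24 and 0.24 without RA and -0.31 and 0.24 with RA. The 4 members on chromosome 1 (Zfp281, Zfp451, Zfp142 and Zfp238) had medians of -0.31 and -0.43, and the 7 on chromosome 11 (Zfp207, Zfp652, Zfp830, Zfp692, Zfp62, Zfp867 and Zfp672) had medians of 0.09 and 0.23. The part of these chromosomes in the calls of Zfp281, Zfp451 and Zfp652 was not tested. Zfp213, Zfp423 and Zfp706 lie on chromosomes 17, 8 and 15, and of the 142 members on chromosomes other than 1 and 11, 4 were higher and 7 lower without RA and 2 higher and 9 lower with RA.

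**Figure D3:**
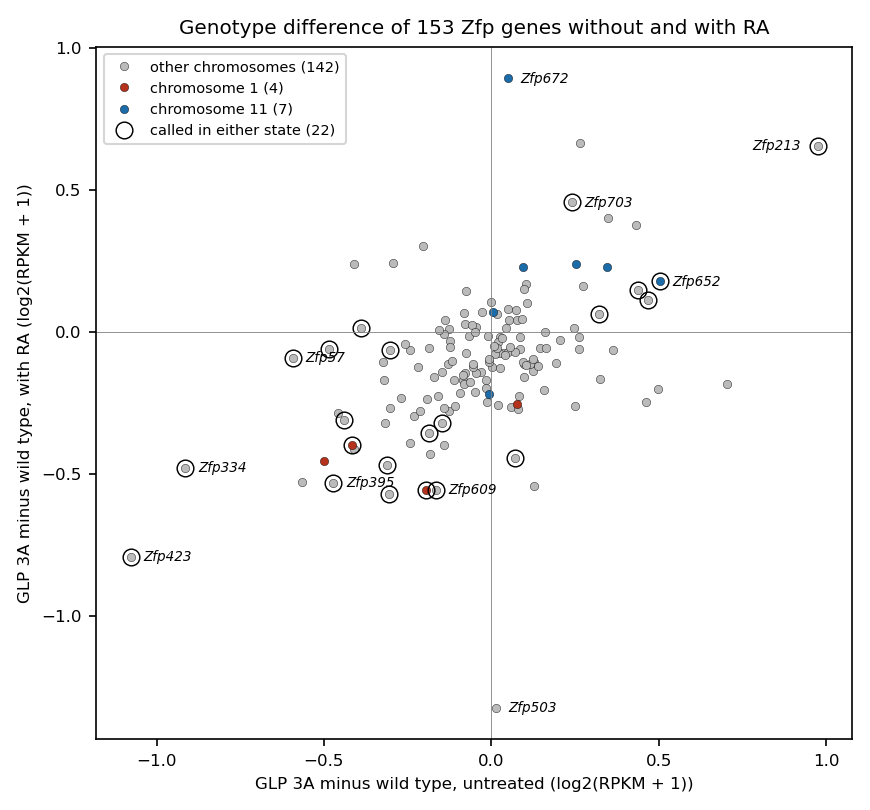
Difference between GLP 3A and wild type on the log2(RPKM + 1) scale without RA (horizontal) and with RA (vertical) for the 153 zinc finger genes; each point is 1 gene, red on chromosome 1, blue on chromosome 11, and rings mark the 22 genes called in either state. Zfp213 at 0.98 and 0.65 and Zfp423 at -1.08 and -0.79 lie farthest out among genes called in both states.

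In the genome 72 of the 153 genes lay in clusters, here runs of at least 3 Zfp symbols with gaps of at most 500 kb in the mm9 loci. The 30 clusters held 192 of the 340 symbols. Of the clustered symbols 37.5% were members, against 54.7% of the 148 outside, a difference that was not tested. In wild type 24 of the 72 clustered genes rose with RA and 27 fell, 70.8%, and 27 and 39 of the 81 others, 81.5%, beside 68.5% of all genes tested. The directions of calls within clusters are given as a description and were not tested. A cluster with a single called member cannot hold calls in both directions. Of the 22 clusters with at least 2 members, 7 held genes that rose and genes that fell, 6 held rises alone, 7 falls alone and 2 no call. Of 46 pairs of neighbouring members in a cluster, 16 had the same call in wild type, 7 had opposite calls and in 23 at least 1 was not called. In GLP 3A 11 of these pairs had the same call, 8 had opposite calls and in 27 at least 1 was not called. There 8 of the 22 clusters held genes that rose and genes that fell, 6 held rises alone and 8 falls alone.

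The cluster with most members was on chromosome 7 (30553570 to 30954746), where 7 of 15 symbols were members. Zfp146 and Zfp260 rose there with RA in wild type, by 1.00 and 0.46, Zfp940, Zfp383, Zfp74 and Zfp566 fell, and Zfp568 did not pass. Zfp146 was at 18.8 and 17.7 RPKM without RA and at 35.3 and 40.1 RPKM with RA, while Zfp566 went from 10.2 and 10.5 RPKM to 6.65 and 5.61 RPKM. A second cluster on chromosome 7 (134376956 to 135034484) put Zfp768, with its rise of 2.28, beside Zfp553, with its fall of 1.503 on the log2 scale. Zfp771 and Zfp668 in the same cluster did not pass, Zfp688 rose and Zfp646 fell.

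Some clusters held calls in 1 direction. On chromosome 7 (4866818 to 5005325) Zfp628, Zfp579, Zfp865 and Zfp580 all rose in wild type, by 0.25, 1.04, 0.36 and 0.71, and Zfp579 and Zfp580 rose in GLP 3A. On chromosome 6 (47769264 to 48573226) Zfp282, Zfp777 and Zfp746, the PARIS repressor, rose and Zfp212 did not pass. On chromosome 8 (71732944 to 72298810) Zfp930, Zfp868 and Zfp869 fell, by 0.86, 0.70 and 0.39 on the log2 scale, and Zfp866 did not pass. Zfp936 and Zfp819, both among the deepest falls, lay in 1 cluster on chromosome 7 (50432957 to 50873649). The cluster on chromosome 13 that holds Zfp459 (67139529 to 67931922) had 17 symbols, and Zfp459 was its single member. The largest, on chromosome 17 (21145904 to 23736454), had 20 symbols and 4 members: Zfp948 and Zfp213 rose in wild type, Zfp13 fell and Zfp942 did not pass.

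**Figure D4:**
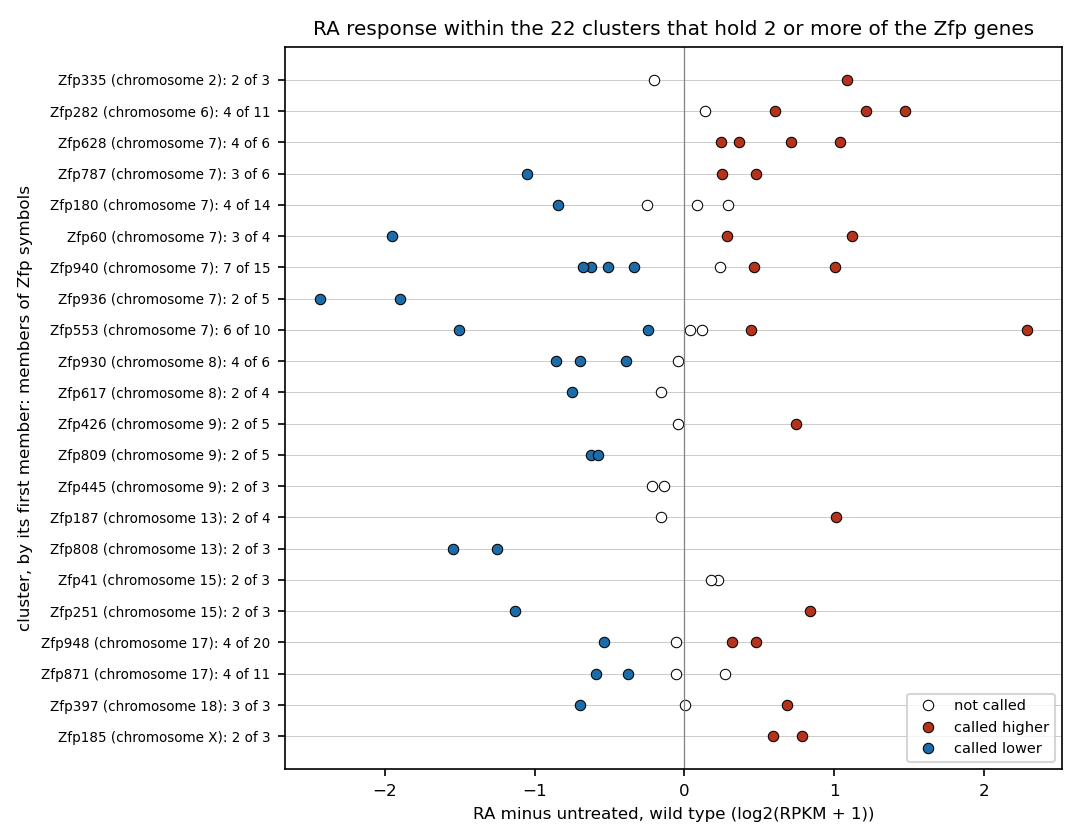
Difference between RA and untreated in wild type on the log2(RPKM + 1) scale for the members of the 22 clusters with at least 2 members; each row is a cluster, named by its first member with its chromosome and the number of members of all its Zfp symbols, each point is 1 gene, red called higher, blue called lower, white not called. In 7 of the 22 rows red and blue points occur together.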

How the data were processed

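RNA-seq of 8 libraries was used. Reads had been mapped to mm9 with TopHat, Bowtie 0.12.7 and SAMtools and summarised with Cufflinks, per the submitters' processing notes, which give no order of steps. The deposited values are RPKM per gene symbol, made by the authors, with no read counts and no exact depth. From these, 12 symbols that were not in all 8 files were left out, log2(RPKM + 1) was computed, and the 13198 genes that reached 1 RPKM in 2 or more libraries were fitted with limma 3.58.1 in R 4.3.3, as 4 group means with an intensity trend. The 5 comparisons were adjusted by Benjamini-Hochberg over all genes tested and called at an adjusted p under 0.05, two-sided. The procedure was tested on simulated data. The named genes were the highest in mean level, the 10 largest called changes in each direction with groups apart, the 3 largest uncalled differences, role lists, clusters and the genes beside the threshold. Members and lists were chosen with earlier results of these data known. Alternatives varied the pseudocount, filter, scaling, libraries, chromosomes and membership. Proteins encoded by the members were not analysed here.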

Additional observations from a re-analysis of the deposited data

How the results depend on the processing

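Named genes kept their direction under each alternative, with 1237 values on the same side of the threshold, 26 that newly passed and 166 that no longer passed. Leaving out 1 library in turn gave 42 to 51 genes higher and 51 to 69 lower with RA in wild type (median -0.1622 to -0.0588), 39 to 43 and 54 to 69 in GLP 3A (median -0.1913 to -0.1188), 1 to 9 and 0 to 12 between genotypes without RA (median -0.0330 to 0.0254), 0 to 4 and 0 to 19 with RA (median -0.1126 to -0.0868), and 0 to 1 and 0 to 3 for the difference of responses (median -0.1145 to -0.0416). Where this left a group with 1 library, its spread was taken from the other groups. For RA in wild type the median was -0.19 with quantile normalization and -0.16 for genes with a mean of at least 5 RPKM. With the 291 Zfp symbols tested apart from the 4 set aside by name, 87 were higher with RA in wild type. This was 29.9%, beside 33.3% of the 153 members and 33.7% of all genes tested. In GLP 3A 81 were higher with RA (27.8%, beside 27.5% and 32.3%). With RA 5 were higher in GLP 3A than in wild type (1.72%, beside 1.31% and 5.30%, median -0.0663). In the difference of responses 1 was lower (0.344%, beside 1.24% of all genes tested). A restriction to the 89 members at 5 RPKM in all 8 libraries was chosen after seeing the data. There RA gave 18 higher (20.2%) and 43 lower (48.3%) in wild type (median -0.23). In GLP 3A it gave 13 (14.6%) and 45 (50.6%), beside 20.9% and 49.5% of all 7055 genes at that level. Between genotypes 4 were higher and 4 lower without RA, and 0 higher and 8 lower with RA. Of the 7055 genes 7.92% were higher and 3.36% lower without RA, and 3.84% and 5.57% with RA. Without RA, the genotype median was -0.0491 after scaling by the median of ratios, and quantile normalization gave -0.0464 and 2 genes higher. Fitting only the 4 untreated libraries gave 11 higher and 14 lower, and only the 4 RA libraries 0 and 0. With RA, 1 gene was higher in GLP 3A with a pseudocount of 0.1, 1 with 0.5, and 1 higher and 5 lower with no filter. Of the 125 genes with a mean of at least 5 RPKM 1 was higher. Without chromosomes 1 and 11, 6 of 142 members were lower, beside 345 of 11374 genes tested. Counts from sets of different size differ by that size, and the cause of the other shifts was not tested. Same-numbered libraries had correlations of deviations of 0.169 to 0.355 between groups, but the labels give no pairing. A fit with the replicate number as a block gave 52 higher and 67 lower with RA in wild type, 45 and 70 in GLP 3A, 5 and 10 between genotypes without RA, 2 and 11 with RA, and 0 and 0 for the difference of responses. With RA it shared 12 of the 13 genotype calls, gaining Zfp503 (adjusted p = 0.0357) and losing Zfp277 (adjusted p = 0.0527). Fitting only 4 libraries does not apply to the difference of responses. Without read counts, the error of low values could not be given.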

Other observations

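Zfp600, a retroelement-repressing KRAB gene that stayed below the threshold of 5 RPKM and was picked out here after its values were seen, was at 0.652 and 0.783 RPKM in the wild-type libraries without RA and at 3.15 and 3.31 RPKM in those of GLP 3A. With RA it was at 0.0130 RPKM in 1 wild-type library, listed at 0 in the other, and at 0.297 and 0.153 RPKM in GLP 3A. The difference between genotypes without RA was 1.30 on the log2(RPKM + 1) scale (limma adjusted p = 0.00248). Its RA response passed the test of a difference between genotypes, at -1.02 on that scale (limma adjusted p = 0.0387). The pseudocount of 1 RPKM shrinks differences at levels this low. The value of -1.02 therefore does not show a larger fold fall in GLP 3A, where the untreated level was the higher one. Of the 295 Zfp symbols tested, 1 other passed that test, Zfp42, a stem cell marker among the 4 set aside by name, at 2.50 (limma adjusted p = 0.0463). Its untreated level was much lower in GLP 3A than in wild type, as given above.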
